A study of Homo sapiens with 8 samples.

Results

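Aminoacyl-tRNA synthetase genes were examined in chromatin immunoprecipitation sequencing (ChIP-seq) peak lists for the transcription factors Sp1 and CTCF from U-2 OS, a cell line derived from a human osteosarcoma. The gene list was set by name and not by a rule on peaks, but earlier results of these data were known when it was chosen. It holds 35 of the 20033 protein-coding genes scored. Of these, 19 encode cytosolic enzymes and 16, with names ending in 2, encode mitochondrial enzymes. The list does not hold every synthetase gene. A gene was scored as bound in a library when the summit of a peak, its highest point, lay within 1 kb of any annotated transcript start of that gene in GENCODE release 44 (hg38). The study collected 8 libraries, 5 of which have peak lists, and the 3 input libraries were not analysed here. Sp1 was precipitated once with each of a pair of rabbit antibodies, called antibody 1 and antibody 2, and normal rabbit IgG was the control. According to the labels these libraries came from a U-2 OS line with V5-Halo-SP1 inserted at the endogenous locus, and the CTCF libraries, replicates 1 and 2, from a single FLAG-Halo-CTCF knock-in clone. The series' design text instead calls the CTCF cells wild type, and the labels were followed. All cells were crosslinked for 6 min in 1% formaldehyde with no other treatment. Since Sp1 and CTCF were measured in different lines, target and line cannot be told apart.

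Aminoacyl-tRNA synthetases join each amino acid to its tRNA, the step that sets which amino acid a codon is read as. The cytosolic and mitochondrial enzymes are separate proteins for most amino acids, and both sets are encoded in the nucleus. They fall into class I and class II, whose catalytic domains have unrelated folds. Several cytosolic enzymes are held together with scaffold proteins in the multisynthetase complex. Sp1 is a zinc-finger activator that binds GC boxes in CpG-rich promoters, and CTCF is a zinc-finger protein known for organising chromatin loops. Many cytosolic synthetase genes are known targets of ATF4, the transcription factor of the amino acid stress response, which binds with a C/EBP partner to a composite element with the letters TGATGCAA.

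The word TGATGCAA, searched from 250 bases before to 50 after the canonical start, was found in cytosolic genes only and is shown first. Each run below is 30 bases of the hg38 reference, written 5′ to 3′ on the strand of the gene and centred on the word. Capitals mark the word, which reads TTGCATCA where it lies on the opposite strand.
AARS1, chr16:70289675-70289704, minus strand: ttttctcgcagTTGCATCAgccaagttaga
CARS1, chr11:3057407-3057436, minus strand: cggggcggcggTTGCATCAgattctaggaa
IARS1, chr9:92293692-92293721, minus strand: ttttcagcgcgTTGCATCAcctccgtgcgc
MARS1, chr12:57488053-57488082, plus strand: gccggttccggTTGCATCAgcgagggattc
NARS1, chr18:57621804-57621833, minus strand: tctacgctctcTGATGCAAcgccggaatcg
TARS1, chr5:33440956-33440985, plus strand: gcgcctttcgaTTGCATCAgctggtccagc
YARS1, chr1:32817337-32817366, minus strand: ccgagcccagcTGATGCAAcctggctggac
In 6 of these 7 genes the word lay within 17 bp of the canonical transcript start, and in AARS1 it lay at −184 bp. Within 1 kb of the canonical start but outside that window, the word also lay at +197 bp in EPRS1, which had no Sp1 peak, at −263 and +760 bp in WARS1, 717 bp or more from its Sp1 summits, at +946 bp in MARS1 as a second copy, and at −362 bp in the mitochondrial gene FARS2.

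The strongest Sp1 peaks of each gene class, and the promoter shared by HARS1 and HARS2, had other words at their summits. In the runs for YARS1 and LARS2, taken from the highest antibody 1 peaks of the cytosolic and the mitochondrial genes, capitals mark the GC box GGGCGG, which reads CCGCCC on the other strand. In the runs for WARS1 and TARS2, the highest antibody 2 peaks, and for HARS1, capitals mark CCGGAA, the core word of ETS factors, which reads TTCCGG on the other strand.
YARS1, antibody 1, chr1:32817466-32817495, minus strand: CCGCCCtccgcaCCGCCCaccgtgcccact
LARS2, antibody 1, chr3:45388518-45388547, plus strand: ccttccccggtcCCGCCCccgtctgtctgt
WARS1, antibody 2, chr14:100376335-100376364, minus strand: ggcgccgtcgggCCGGAAgttgttccgtcc
TARS2, antibody 2, chr1:150487195-150487295, plus strand: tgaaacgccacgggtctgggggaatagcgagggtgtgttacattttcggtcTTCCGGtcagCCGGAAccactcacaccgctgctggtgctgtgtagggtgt
HARS1, antibody 1, chr5:140691423-140691452, minus strand: TTCCGGgaggagCCGGAAataatttttgtg
The TARS2 run is the whole 101 bp around the summit, and it holds the ETS core on both strands with 4 bases between.

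CTCF runs are shown for RARS1, the highest peak of the cytosolic genes, and for high peaks of the mitochondrial genes SARS2, AARS2 and EARS2. YARS2, whose replicate 1 peak was also higher than that of RARS1, is not shown. The SARS2 summit of replicate 1 lay 269 bp downstream of the nearest start, in a coding exon. The runs for RARS1, SARS2 and AARS2 are the 101 bp centred on the replicate 1 summit, and none of them holds an exact match to the CTCF core motif that was searched. The EARS2 run is 30 bases around its exact match to that core, in capitals.
RARS1, chr5:168486329-168486429, plus strand: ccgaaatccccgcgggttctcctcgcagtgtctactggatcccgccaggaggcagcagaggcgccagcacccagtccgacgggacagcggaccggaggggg
SARS2, chr19:38930439-38930539, minus strand: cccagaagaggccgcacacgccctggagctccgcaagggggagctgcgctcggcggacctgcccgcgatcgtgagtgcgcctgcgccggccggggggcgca
AARS2, chr6:44313357-44313457, minus strand: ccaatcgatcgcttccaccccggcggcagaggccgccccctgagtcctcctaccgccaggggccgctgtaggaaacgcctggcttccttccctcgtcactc
EARS2, chr16:23557495-23557524, minus strand: ctggcctctGCCCCCTGGTGGcgagtgcgg

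Most synthetase promoters carried an Sp1 peak. Antibody 1 gave a summit at 27 of the 35 genes (77.1%, 95% Wilson interval 61.0 to 87.9%), beside 37.3% of all protein-coding genes. Antibody 2 gave one at 21 genes (60.0%, 43.6 to 74.4%), beside 24.1%. Both antibodies marked 16 genes (45.7%, 30.5 to 61.8%), beside 21.1%. Antibody 1 alone marked 11 genes, beside 16.2% of protein-coding genes, and antibody 2 alone marked 5 genes, beside 2.96%. Only EPRS1, YARS2 and MARS2 had no Sp1 summit. The IgG list, with 106 peaks, had none at a synthetase gene (0 of 35, upper limit 9.89%), beside 0.0250% of protein-coding genes. These intervals cover counting error over genes only, since each antibody was used in 1 library and no replicate test is possible.

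Promoter type and the number of annotated starts moved with these shares, and their part in them was not tested. A promoter was called CpG-rich when the 300 bases around its canonical start, 250 before and 50 after, had over 50% GC and an observed to expected CpG ratio over 0.6. By that measure 33 of the 35 synthetase genes (94.3%) were CpG-rich, beside 65.3% of protein-coding genes, and they had a median of 13 annotated starts beside 5. Among CpG-rich protein-coding genes, antibody 1 marked 50.4%, antibody 2 marked 32.5% and both marked 28.7%. Among CpG-rich genes with 10 or more starts these shares were 59.0%, 38.3% and 34.4%. The synthetase shares of 77.1% and 60.0% stood above these last values, and the lower ends of their intervals, 61.0% and 43.6%, did so as well. For both antibodies together the interval of 30.5 to 61.8% held the value of 34.4%. When only the canonical start was counted, antibody 1 marked 25 synthetase genes and antibody 2 marked 21, beside 34.0% and 21.7% of protein-coding genes.

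With the full lists, cytosolic and mitochondrial genes had similar shares with antibody 1 and a larger cytosolic share with antibody 2, within wide intervals. Antibody 1 marked 14 of 19 cytosolic genes (73.7%, 51.2 to 88.2%) and 13 of 16 mitochondrial genes (81.2%, 57.0 to 93.4%). Antibody 2 marked 13 of 19 cytosolic genes (68.4%, 46.0 to 84.6%) and 8 of 16 mitochondrial genes (50.0%, 28.0 to 72.0%). The intervals overlapped for both antibodies. That overlap is no test, and whether the compartments differ was not tested. With the lists cut to equal length, antibody 1 marked 10 of 19 cytosolic and 13 of 16 mitochondrial genes, beside 28.6% of protein-coding genes. All antibody 1 calls lost that way were cytosolic, and the antibody 2 counts stayed at 13 and 8. Of the 5 genes marked by antibody 2 alone, 4 were cytosolic (IARS1, LARS1, NARS1 and RARS1) and 1 was mitochondrial (RARS2). GARS1 and KARS1, whose products serve both compartments, were marked by antibody 1 alone.

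**Figure D1:**
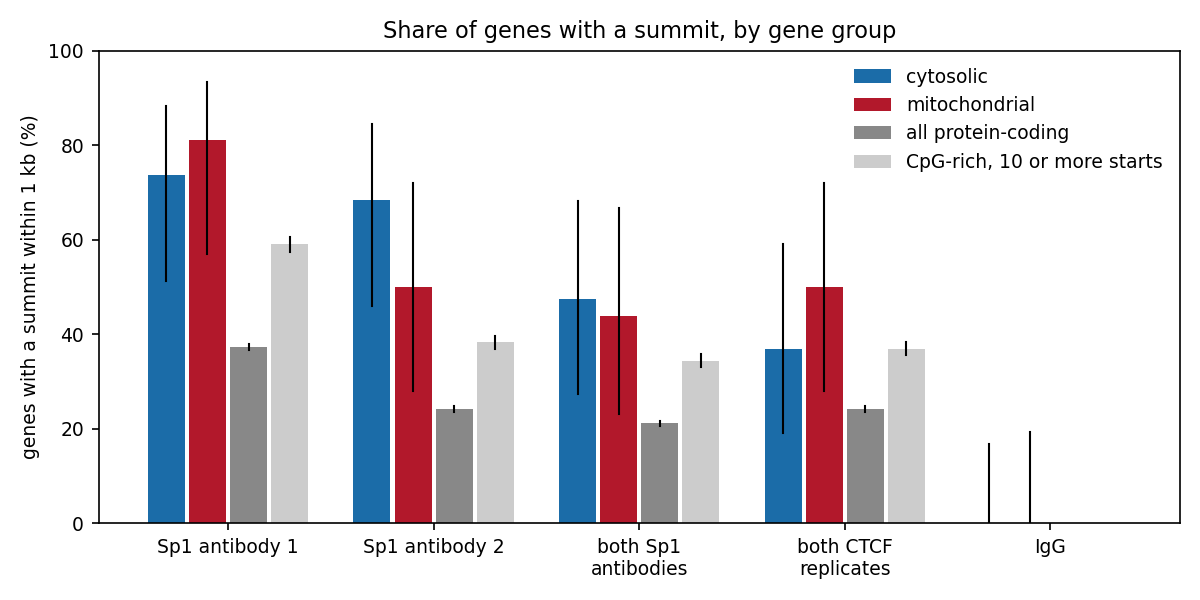
Bars give the share of genes (%) with a peak summit within 1 kb of a transcript start, for cytosolic and mitochondrial synthetase genes, all protein-coding genes and CpG-rich protein-coding genes with 10 or more starts; lines are 95% Wilson intervals over genes. The synthetase bars lie above both reference bars for each Sp1 antibody, with 73.7% and 81.2% for antibody 1, whereas the cytosolic CTCF bar (36.8%) is level with the CpG-rich genes (36.9%).

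The 7 cytosolic genes of the multisynthetase complex had antibody 2 summits at 5 genes (71.4%, 35.9 to 91.8%), beside 24.1% of protein-coding genes, and antibody 1 summits at 3 genes (42.9%, 15.8 to 75%), beside 37.3%. These intervals overlapped. Fold enrichment, the height of a peak over background as the peak caller gave it, is quoted for the strongest summit within 1 kb of a start. QARS1, the glutamine enzyme, had 11.6 with antibody 1 and 4.24 with antibody 2, and it had no CTCF summit. MARS1, the methionine enzyme, had 4.43 with antibody 1 and 9.42 with antibody 2, and CTCF only in replicate 1 (18.2). KARS1, the lysine enzyme, had 11.7 with antibody 1 and no other summit.

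The other 4 complex genes had no antibody 1 summit and CTCF in both replicates. RARS1, the arginine enzyme, had 15.5 with antibody 2, and its CTCF peaks of 120.1 and 105 in replicates 1 and 2 were the highest of the cytosolic genes. The antibody 2 and CTCF summits of RARS1 lay 25 bp apart, within the run printed above. LARS1, the leucine enzyme, had 5.18 with antibody 2 and CTCF peaks of 28.7 and 16.7, the latter pair at an alternative start in a LARS1 intron. IARS1, the isoleucine enzyme, had 8.89 with antibody 2 and CTCF peaks of 11.97 and 9.46. EPRS1, which joins glutamate and proline and is the complex's bifunctional member, had CTCF peaks of 31.2 and 13.8 and no Sp1 summit.

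Of the 12 cytosolic genes outside the complex, antibody 1 marked 11 and antibody 2 marked 8. YARS1, the tyrosine enzyme, had the highest antibody 1 peak of all synthetase genes, 22.2 (rank 597 of 8706 in that list by fold enrichment), and 10.3 with antibody 2. WARS1, the tryptophan enzyme known to be induced by interferon, had 11.3 with antibody 1 and the highest cytosolic antibody 2 peak, 18.8. Its Sp1 summits, at 100376358 and 100376327 on chromosome 14, lay by an alternative start, while the canonical start was at 100375347. The CTCF peaks of WARS1 were 5.03 and 5.55, in an intron of the neighbouring gene WDR25. The peaks there cannot be assigned to WARS1 or WDR25 from the lists. Antibody 1 was thus the higher in YARS1 and antibody 2 in WARS1.

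Peaks of both antibodies below that height lay at the subunit gene FARSB and at several single-chain enzymes. FARSB, the beta subunit of the phenylalanine enzyme, had 10.7 and 5.41 with antibodies 1 and 2, while its partner subunit gene FARSA had 4.43 with antibody 1 and no antibody 2 summit. AARS1, the alanine enzyme, had 5.75 and 7.63, CARS1, the cysteine enzyme, 5.28 and 8.87, and TARS1, the threonine enzyme, 5.70 and 6.54. In these last 3 genes antibody 2 was the higher.

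HARS1, the histidine enzyme, had 6.84 and 5.604 with antibodies 1 and 2 in peaks it shares with HARS2. Each remaining cytosolic gene outside the complex was seen by 1 antibody. NARS1, the asparagine enzyme, had 7.20 with antibody 2, GARS1, the glycine enzyme, 7.85 with antibody 1 and SARS1, the serine enzyme, 6.02 with antibody 1. VARS1, the valine enzyme, had 3.91 with antibody 1, but that summit lay 983 bp from a VARS1 start in a 5′ untranslated exon of VWA7, and it was lost when the distance was set to 500 bp. All other Sp1 calls rested on summits within 511 bp of a start.

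The mitochondrial genes were led by TARS2 with antibody 2 and by LARS2 with antibody 1. TARS2, the threonine enzyme of mitochondria, had a fold enrichment of 140.5 with antibody 2 (rank 30 of 5973 peaks) and of 7.85 with antibody 1 (rank 4280 of 8706). The summits lay 27 bp apart, at −169 and −142 bp from the nearest start. Of the 4233 protein-coding genes with both antibodies, 15, TARS2 included, had an antibody 2 to antibody 1 ratio at least as large. LARS2, the leucine enzyme, had 17.2 with antibody 1, with its summit 1 bp from a start, and 5.74 with antibody 2.

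The other mitochondrial genes with both antibodies had modest Sp1 peaks, higher with antibody 1 in every case. EARS2, the glutamate enzyme, had 12.1 and 8.01 with antibodies 1 and 2, SARS2, the serine enzyme, 6.86 and 4.69, WARS2, the tryptophan enzyme, 7.54 and 3.77, and AARS2, the alanine enzyme, 5.56 and 3.83. HARS2 shared its peaks with HARS1. Antibody 1 alone marked FARS2 (14.1), CARS2 (12.5), PARS2 (11.0), IARS2 (9.33), VARS2 (9.02) and NARS2 (6.16). These are the enzymes for phenylalanine, cysteine, proline, isoleucine, valine and asparagine. The CARS2 value came from a summit at −511 bp from an alternative start. A lower antibody 1 summit of CARS2, 9.26, lay at −64 bp from its nearest start. An antibody 2 summit of 6.00 lay at −1990 bp from a CARS2 start, outside the 1 kb limit. RARS2, the arginine enzyme, had 4.56 with antibody 2 and no other summit. YARS2, the tyrosine enzyme, had CTCF peaks of 131 and 42.6 in its coding exon and no Sp1 summit. MARS2, the methionine enzyme with 1 annotated start, was the only synthetase gene with no summit in any list, beside 44.0% of protein-coding genes.

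**Figure D2:**
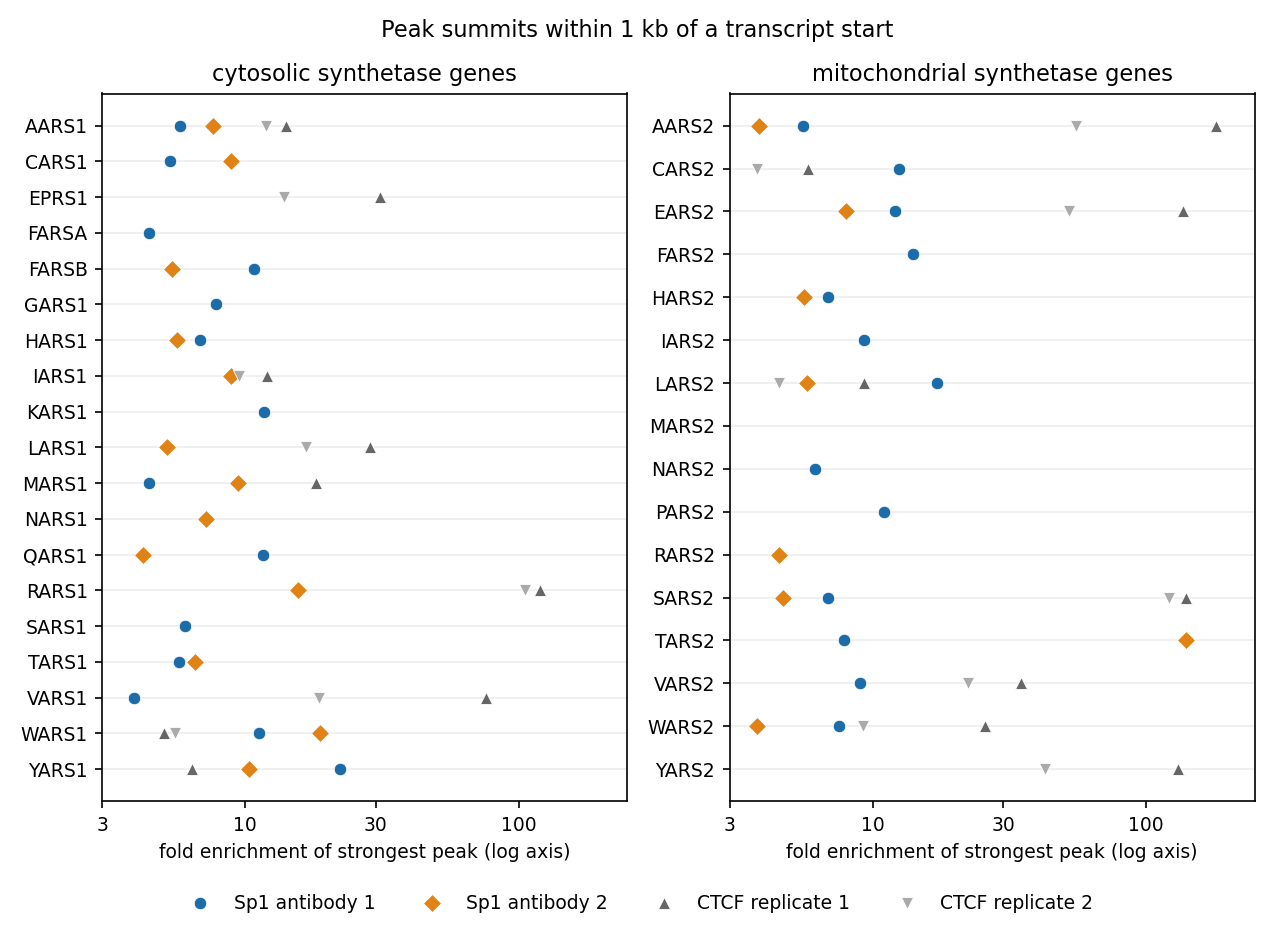
Fold enrichment (log axis) of the strongest peak within 1 kb of a transcript start is plotted for each synthetase gene and list, cytosolic on the left and mitochondrial on the right; a missing symbol means no summit. Sp1 peaks lie mostly between 3.77 and 22.2, TARS2 with antibody 2 stands at 140.5, and the tallest CTCF peaks lie at AARS2, SARS2, EARS2, YARS2 and RARS1.

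The antibodies were compared at the 16 genes where both had a summit. HARS1 and HARS2 share the same peak of each antibody. That pair of peaks was counted for each of these genes in the gaps, ratios and SD below. The peaks overlapped at all 16 genes. Their summits lay a median of 36.5 bp apart, beside 61 bp over all protein-coding genes with both. The log2 ratio of antibody 2 to antibody 1 fold enrichment had a median of −0.41 at the 16 genes, beside −0.66 over 4233 protein-coding genes. It was above 0 at 6 of 16 synthetase genes (37.5%), beside 24.3% of protein-coding genes. The 9 cytosolic genes had a median of 0.20, with MARS1 (1.09), CARS1 (0.75), WARS1 (0.74), AARS1 (0.41) and TARS1 (0.20) above 0. FARSB (−0.99), YARS1 (−1.10), HARS1 (−0.29) and QARS1 (−1.45) were below 0. The 7 mitochondrial genes had a median of −0.55 and lay between −1.58 and −0.29 apart from TARS2 at 4.16.

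The antibody ratio had an SD of 1.38 across the 16 synthetase genes, beside 1.31 over protein-coding genes. The CTCF replicates differed by a log2 ratio with an SD of 0.66 across the 15 synthetase genes called in both, beside 0.50. Those 15 include CARS2, where the replicate peaks lay at different starts. The CTCF spread is of another protein in another line and does not measure the error of the antibody ratio. The cytosolic and mitochondrial ranges of the antibody ratio overlapped, and with 1 library per antibody the ratios have no replicate error of their own. The 2 lists also differ in length, with 8706 peaks for antibody 1 and 5973 for antibody 2.

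**Figure D3:**
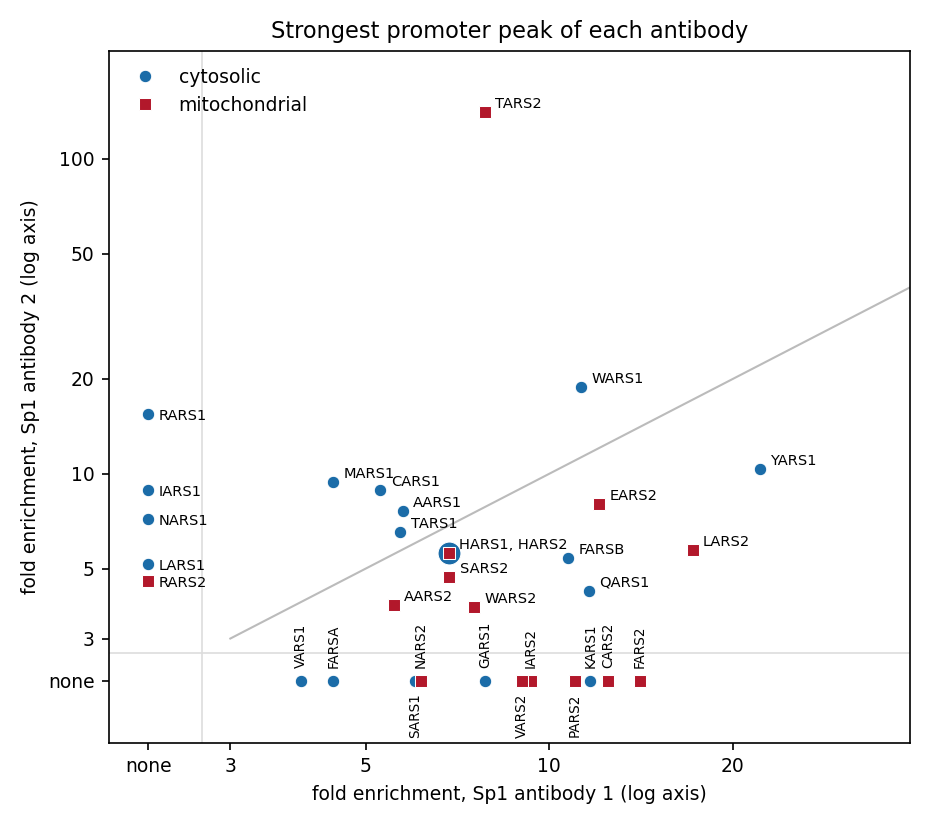
Fold enrichment of the strongest promoter peak with antibody 2 against antibody 1 (both log axes) is plotted per gene, circles for cytosolic and squares for mitochondrial genes, with genes lacking a peak placed at "none" and the diagonal marking equal values. The 5 cytosolic genes above the diagonal are MARS1, CARS1, WARS1, AARS1 and TARS1, and TARS2 is the only mitochondrial gene with both peaks above it.

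CTCF was called at about as many synthetase promoters in both replicates (15) as both Sp1 antibodies together (16). Replicate 1 gave a summit at 17 genes (48.6%, 33.0 to 64.4%), beside 32.4% of protein-coding genes, and replicate 2 at 15 genes (42.9%, 28.0 to 59.1%), beside 24.8%. All 15 genes of replicate 2 were also called in replicate 1. Over all protein-coding genes, 4843 of the 4975 called in replicate 2 were called in both. The share called in both was 42.9% of synthetase genes, beside 24.2% of protein-coding genes. CpG-rich protein-coding genes were called in both replicates at 29.2% and those with 10 or more starts at 36.9%, which is within the interval of the synthetase share. Cytosolic genes accounted for 7 of the 15 (36.8% of 19, 19.1 to 59.0%) and mitochondrial genes for 8 (50.0% of 16, 28.0 to 72.0%).

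The CTCF peaks of mitochondrial genes were higher at the median than those of cytosolic genes, and the ranges overlapped. In replicate 1 the median fold enrichment was 83.1 over 8 mitochondrial genes (range 5.79 to 180.1) and 18.2 over 9 cytosolic genes (5.03 to 120.1), beside 22.6 over all protein-coding genes called. AARS2, EARS2, SARS2 and YARS2 lay above the highest cytosolic value in replicate 1. In replicate 2 the medians were 32.4 and 13.8, beside 19.8. Only SARS2 lay above the highest cytosolic value there, which was 105 at RARS1. AARS2 had 180.1 and 55.4, EARS2 137 and 52.4, SARS2 140.5 and 122, VARS2 34.8 and 22.2, WARS2 25.8 and 9.21. The VARS2 values came from summits in an intron, at −725 and −753 bp from the nearest start. Lower VARS2 summits of 9.83 and 4.63 in replicates 1 and 2 lay at −16 and −89 bp. CTCF at LARS2 was weaker, at 9.26 and 4.54. At CARS2 the peaks of 5.79 and 3.79 lay 6379 bp apart, at different alternative starts, so the call in both replicates did not mark 1 site there. At the other 14 genes the replicate summits lay within 28 bp of each other.

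Several CTCF calls rested on alternative starts rather than on the canonical one. When only canonical starts were counted, both CTCF replicates marked 10 synthetase genes, 4 cytosolic and 6 mitochondrial, beside 15.5% of protein-coding genes. The calls lost in 1 or both replicates were those of AARS1, LARS1, WARS1, YARS1, CARS2 and LARS2. The CTCF summits of AARS1 (14.1 and 11.9) lay in a coding exon beside an internal start, and a higher CTCF peak of the same gene, with 85.4 and 49.7, lay at its 3′ end, 3114 and 3092 bp from the nearest start. VARS1 kept its call, with CTCF peaks of 75.9 and 18.6 at −248 and −260 bp.

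Sorted by catalytic class, CTCF in both replicates marked 11 of 18 class I genes (61.1%, 38.6 to 79.7%) and 3 of 16 class II genes (18.8%, 6.59 to 43.0%), the latter being AARS1, AARS2 and SARS2, beside 24.2% of protein-coding genes. With canonical starts only, an alternative chosen after seeing the data, the counts were 7 class I and 2 class II genes, and the class I call of CARS2 did not mark 1 site. Antibody 1 marked 12 class I genes (66.7%, 43.7 to 83.7%) and 15 class II genes (93.8%, 71.7 to 98.9%), beside 37.3%. EPRS1 holds a domain of each class and was left out of this split. The intervals of the classes overlapped in both cases, and whether the classes differ was not tested.

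Both antibodies and both CTCF replicates met at 7 genes (20.0%, 10.0 to 35.9%), beside 6.68% of protein-coding genes. The share was 9.07% among CpG-rich protein-coding genes and 12.3% among those with 10 or more starts. The interval of the synthetase share held the value of 12.3%. The 7 genes were AARS1, WARS1, AARS2, EARS2, LARS2, SARS2 and WARS2, so 5 of the 7 were mitochondrial. The Sp1 and CTCF summits lay close together in only some of them. In EARS2 the CTCF summit of replicate 1 lay 46 bp from the antibody 1 summit and 11 bp from the antibody 2 summit, and in AARS2 it lay 29 and 151 bp away. The distances were 244 and 279 bp in SARS2, 456 and 489 bp in WARS2 and 751 and 782 bp in WARS1. In AARS1 and LARS2 the summits lay at different starts, 21844 bp or more apart.

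Sp1 summits sat close to the start. The median distance to the nearest annotated start was 47 bp with antibody 1 and 9 bp with antibody 2, beside 81 and 84 bp over protein-coding genes. Antibody 2 summits lay within 100 bp of a start at 18 of 21 genes (85.7%), beside 55.4%, and antibody 1 summits at 20 of 27 (74.1%), beside 57.3%. The larger number of annotated starts of synthetase genes moves with this distance, and its part was not tested. Measured to the canonical start alone the medians were 81 and 44 bp, beside 121 and 128 bp. CTCF summits were farther away, with medians of 248 and 258 bp in replicates 1 and 2, beside 216 and 226 bp.

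**Figure D4:**
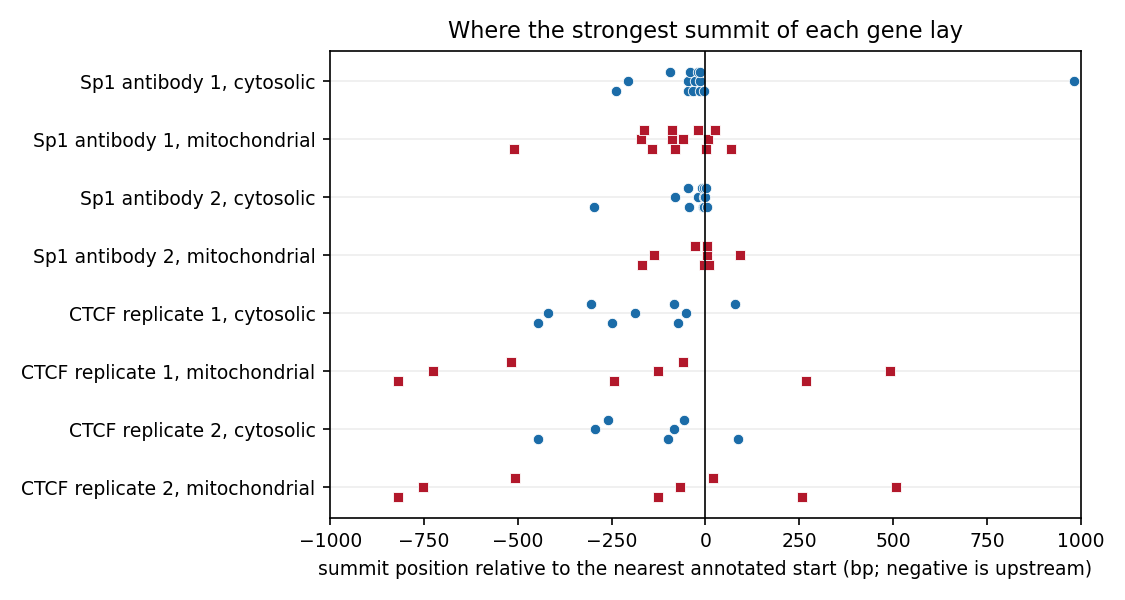
Each symbol is the strongest summit of a synthetase gene, placed by its distance in bp from the nearest annotated start (negative is upstream), in rows by list and compartment with a small vertical offset for legibility. Sp1 summits cluster at the start, with medians of 47 and 9 bp for antibodies 1 and 2 over all synthetase genes, while CTCF summits spread to 819 bp.

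Several synthetase genes have the canonical start of another gene within 1 kb on the opposite strand. HARS1 and HARS2, the cytosolic and mitochondrial histidine enzymes, are divergent with canonical starts 85 bp apart, and a single peak of each antibody (6.84 and 5.604) was counted for both. The 27 antibody 1 calls are therefore 26 distinct summits and the 21 antibody 2 calls are 20. Divergent protein-coding neighbours also lay 108 bp from KARS1 (TERF2IP), 148 bp from RARS2 (ORC3), 181 bp from SARS2 (MRPS12, a mitochondrial ribosomal protein), 295 bp from YARS1 (S100PBP), 377 bp from EARS2 (UBFD1) and 563 bp from FARS2 (LYRM4). Peaks at these promoters cannot be assigned to either gene from the lists.

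Short words were searched in both orientations in the 50 bp to either side of each summit, and a match describes letters, not occupancy. The GC box GGGCGG lay at 13 of 26 antibody 1 summits of synthetase genes (50.0%, 32.1 to 67.9%), beside 56.8% of all antibody 1 promoter summits. With antibody 2 it lay at 7 of 20 summits (35%, 18.1 to 56.7%), beside 44.8%. Both intervals held the share of all summits, so no difference in GC boxes was detectable, and with 100 bp on each side antibody 1 gave 76.9% beside 73.1%. Around canonical starts 74.3% of synthetase promoters held the GC box, beside 61.3% of all promoters.

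The ETS core CCGGAA lay at 8 of the 20 distinct summits (40%, 21.9 to 61.3%), beside 22.6% of all antibody 2 promoter summits. The interval held the share of all summits. The core was at 7 of 13 cytosolic summits (53.8%, 29.1 to 76.8%) and at 2 of 8 mitochondrial summits (25.0%, 7.15 to 59.1%), the shared HARS peak counted in each. With antibody 1 it lay at 7 of 26 (26.9%, 13.7 to 46.1%), beside 13.4%. Around canonical starts it was present in 20 of 35 synthetase promoters (57.1%), beside 22.7% of all promoters.

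TGATGCAA lay at the antibody 2 summits of CARS1, IARS1, MARS1, TARS1 and YARS1. These were 5 of 13 cytosolic summits (38.5%, 17.7 to 64.5%), beside 0.717% of all antibody 2 promoter summits and 0 of 8 mitochondrial summits (upper limit 32.4%). At antibody 1 summits the word was found only at TARS1, 1 of 26, beside 0.151%. Measured from the fifth base of the word, the antibody 2 summit was 3 bp away in IARS1, 8 bp in CARS1, 16 bp in TARS1, 22 bp in MARS1 and YARS1, 61 bp in NARS1 and 130 bp in AARS1. The antibody 1 summit, where there was one, was 22 bp away in TARS1, 66 bp in CARS1, 77 bp in AARS1, 113 bp in YARS1 and 282 bp in MARS1. The antibody 2 summit was the nearer in TARS1, CARS1, YARS1 and MARS1, and the antibody 1 summit in AARS1.

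The same word was rare in the genome's promoters. It was present within the 300 bases around the canonical start in 7 of 19 cytosolic and 0 of 16 mitochondrial genes, beside 0.649% of protein-coding genes. All 7 cytosolic genes with it had an antibody 2 summit, and 5 of the 7 had an antibody 1 summit. Of the 123 other protein-coding genes with the word, 18.7% (12.8 to 26.5%) had an antibody 2 summit and 17.9% (12.1 to 25.6%) an antibody 1 summit. Where both antibodies had a summit, antibody 2 was the higher at 8 of 13 of these other genes (61.5%), beside 24.1% of genes without the word. Among the synthetase genes antibody 2 was higher at AARS1, CARS1, MARS1 and TARS1 and lower at YARS1. Whether the word plays a part in the antibody difference was not tested.

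**Figure D5:**
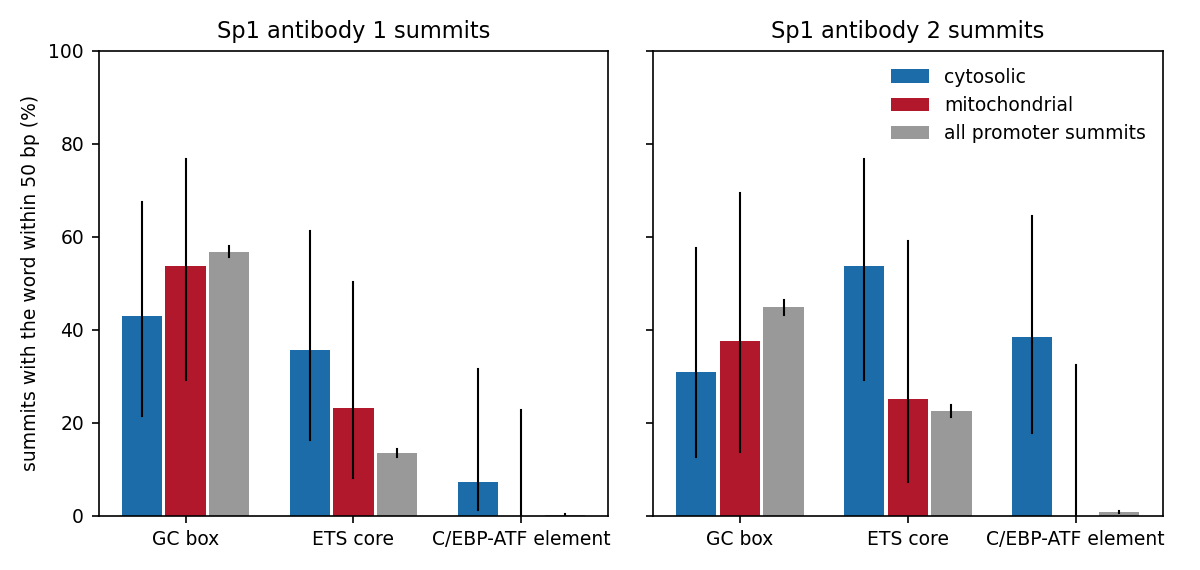
Bars give the share (%) of Sp1 promoter summits that hold each word within 50 bp, for cytosolic and mitochondrial synthetase genes and for all promoter summits of that antibody, with 95% Wilson intervals as lines; the C/EBP-ATF element is the word described in the text. That element is at 38.5% of cytosolic antibody 2 summits and 0.717% of all, while the intervals of the GC box bars hold the shares of all summits.

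Other words were rare. TCGCGAGA, a palindrome of CpG-rich promoters, lay at the summits of WARS2 alone, with both antibodies, beside 3.32% and 0.840% of all promoter summits of antibodies 1 and 2. The C/EBP words TTGCACAA and TTGCGCAA lay at no synthetase summit. An exact CTCF core motif lay at 1 of 17 replicate 1 CTCF summits, that of EARS2, beside 8.54%, and a core with up to 1 mismatch at 5 of 17 (29.4%, 13.3 to 53.1%), beside 33.8%.

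Partner genes of tRNA charging and translation were listed for comparison. Of 21 such genes antibody 1 marked 16 (76.2%, 54.9 to 89.4%) and antibody 2 marked 10 (47.6%, 28.3 to 67.6%), beside 37.3% and 24.1% of protein-coding genes. Both antibodies marked 9 and both CTCF replicates marked 9 (each 42.9%, 24.5 to 63.5%), beside 21.1% and 24.2%. The 3 scaffold genes of the multisynthetase complex, AIMP1, AIMP2 and EEF1E1, were each marked by both antibodies, with 7.69 to 12.3 for antibody 1 and 5.02 to 5.94 for antibody 2, and by no CTCF peak. GFM2, a mitochondrial translation factor gene like GFM1, had 71.3 with antibody 2 and 4.75 with antibody 1, and GFM1 had CTCF peaks of 199 and 123 and 10.8 with antibody 2. PSTK, the kinase of selenocysteine tRNA charging, had 26.5 and 48.1 with antibodies 1 and 2 and CTCF peaks of 67.9 and 63.2.

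Gene bodies were examined more than 1 kb from any start of the gene. Neither antibody had a summit there in the 35 genes (0%, upper limit 9.89%), beside 4.76% and 4.04% of protein-coding genes for antibodies 1 and 2, and the limit held both of these shares. CTCF had 7 and 6 summits in replicates 1 and 2 in 4 cytosolic genes, and 15 and 14 in 7 mitochondrial genes. These were 11 of 35 genes in each replicate (31.4%, 18.6 to 48.0%), beside 40.2% and 36.6% of protein-coding genes, and the intervals held both shares. FARS2 held 6 and 5 of these in its introns. MARS2 had a CTCF summit of 49.8 and 28.3 in its 3′ untranslated exon, 2397 and 2412 bp from its start. Just outside the 1 kb limit lay CTCF summits of IARS2 at 1116 and 1121 bp (37.1 and 24.2) and of NARS2 at 1642 bp (66.5 and 32.8), while the nearest calls inside it were VARS1 with antibody 1 at 983 bp and LARS2 with CTCF at 819 bp.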

How the data were processed

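The 35 synthetase genes, the 21 partner genes and the words searched were chosen with earlier results of these data known. Per the submitters' processing notes, cutadapt 2.6, Bowtie2 2.4.5, SAMtools 1.15.1, deepTools 3.5.4, MACS2 2.2.7.1 and bedtools 2.27.1 were used on hg38. The authors called peaks separately for each library. The study's methods describe MACS peak calling against merged control replicates and without a local background, before a reproducibility analysis. Which control libraries were merged, and whether these lists come from that run, is not given in the sources used here. Each deposited list gives, per peak, a fold enrichment ratio over background and −log10 p and −log10 q values, as computed by the authors with MACS2. The lists hold 8706 (antibody 1), 5973 (antibody 2), 42765 and 36082 (CTCF) and 106 (IgG) peaks. Read depth is unknown from them.

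A gene was called when a summit lay within 1 kb of any of its GENCODE 44 starts, and the strongest summit by fold enrichment gave its value. Shares over genes carry 95% Wilson intervals, which cover counting error only. No p-value was computed, since each Sp1 antibody has 1 library and genes are not replicates. Whether the CTCF replicates came from separate cultures is not stated in the labels. All 35 genes are accounted for, and other genes are named where they share a promoter with one or belong to the partner list. The runs around TGATGCAA and those of SARS2 and EARS2, and the names WDR25 and VWA7, were chosen after their values were seen. Genomic sequence was read with pysam 0.24.0 in Python 3.11.15, and figures were drawn with matplotlib 3.10.9. Calls, distances, word searches and intervals were tested on simulated data. Alternatives were distances of 500 bp and 5 kb, canonical starts, protein-coding transcripts, a −log10 q of at least 3, peak intervals and equal list lengths.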

Additional observations from a re-analysis of the deposited data

How the results depend on the processing

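Of 165 recomputed values, 153 kept their direction and stayed within 1.5 times the reported count or within its spread, 12 moved and 0 turned direction. The moves concerned CTCF and the GC box. With summits counted within 5 kb, which by construction takes in more peaks, CTCF marked 26 synthetase genes in replicate 1, 23 in replicate 2 and 23 in both, with 11 cytosolic genes in replicate 2 and in both and 13 mitochondrial genes in replicate 1. The share of all protein-coding genes called in both replicates was then 43.2%. With canonical starts only, CTCF replicate 1 marked 11 synthetase genes and 5 cytosolic genes, and replicate 2 and both replicates marked 4 cytosolic genes, and both replicates marked 7 class I genes. With 100 bp on each side of antibody 1 summits the GC box was at 76.9% of synthetase summits, beside 73.1% of all. Every count of genes with an Sp1 summit stayed within 1.5 times under each setting, as did the counts that leave out 1 CTCF replicate. The looser word TGATGNAA, which contains TGATGCAA, and the wider window for TGATGCAA were chosen after seeing the data, and they gave 38.5% and 46.2% of cytosolic antibody 2 summits, beside 1.09% and 0.840% of all. No paired analysis was possible because numbered pairs exist only between a CTCF library and its input, and input peak lists were not analysed here. With 1 library per Sp1 antibody and peak lists of unknown depth, a missing summit is one not called at this depth and is no evidence of absence.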
